A study of Arabidopsis thaliana with 6 samples.

Results

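The precursors pri-miR168a (locus AT4G19395) and pri-miR168b (AT5G45307) of Arabidopsis thaliana were 2 of the 19 RNAs read by dimethyl sulfate (DMS) mutational profiling, 16 of which were primary microRNA transcripts (pri-miRNAs). They were taken by name from the tables of base calls, as an amplicon of 300 nt for pri-miR168a and of 309 nt for pri-miR168b. The libraries were 2 of the chr2 mutant with DMS, 2 of Col with DMS, 1 mock library of chr2 and 1 mock library of Col, the last labelled Col-0. All came from leaves of plants 3 weeks old. The plants were held for 30 min under vacuum in buffer with 1% DMS, or with water in its place for the mock, and nuclear RNA was taken from them. The labels do not give the chr2 allele, nor whether the DMS libraries of a genotype were made from different plants. The p-values therefore cover no more than the spread between the libraries at hand. The targets were reverse transcribed and amplified with gene-specific primers and mixed in equal amounts, so read depth says nothing of how abundant either precursor was.

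MicroRNA miR168 guides the slicing of the mRNA of ARGONAUTE1 (AGO1), the protein that carries most plant miRNAs, so its precursors stand in a feedback loop that sets the level of AGO1. A plant pri-miRNA folds into a stem loop from which DICER-LIKE1, with the zinc-finger protein SERRATE, cuts a duplex of the miRNA and its passenger strand, the miRNA*. The stem below the duplex, its mismatches and the terminal loop are known to guide where the first cut falls. CHR2 (BRAHMA) is the motor subunit of a SWI/SNF complex that remodels chromatin, and the series title names it as a remodeller of pri-miRNAs through SERRATE. DMS methylates the pairing face of adenine and cytosine where it is free, and the reverse transcriptase reads through the mark with a wrong base. The mismatch rate of an A or C, the share of base calls other than the reference base, is therefore read as its accessibility, while G and T serve as a control.

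Both hairpins are printed first because every comparison refers to their letters. They are given 5′ to 3′ as DNA letters of the transcribed strand, from the reference base of the deposited tables, and position 1 is the 5′ end of the amplicon. Capitals mark each A or C whose mismatch rate was at least 0.5% in all 4 DMS libraries, which is called a constantly reactive position below. The limit of 0.5% was chosen after the rates were seen.
miR168a hairpin, positions 119 to 256: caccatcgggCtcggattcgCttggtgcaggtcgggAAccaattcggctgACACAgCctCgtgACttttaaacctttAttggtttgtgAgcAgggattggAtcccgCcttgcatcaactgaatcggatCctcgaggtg
miR168b hairpin, positions 131 to 253: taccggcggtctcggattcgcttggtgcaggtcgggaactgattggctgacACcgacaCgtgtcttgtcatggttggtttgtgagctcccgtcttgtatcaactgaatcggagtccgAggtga
The pri-miR168a hairpin carries 19 capitals over 138 nt, and the pri-miR168b hairpin carries 4 over 123 nt.

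The duplex strands were as follows, the miRNA* being taken as the predicted pairing partners of the miRNA and so drawn without its own overhang.
miRNA in miR168a, positions 136 to 156: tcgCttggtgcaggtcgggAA
miRNA in miR168b, positions 148 to 168: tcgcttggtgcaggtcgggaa
miRNA* in miR168a, positions 220 to 239: tcccgCcttgcatcaactga
miRNA* in miR168b, positions 217 to 236: tcccgtcttgtatcaactga
The miRNA was identical in 21 of 21 nt. The miRNA* differed at C225T and C230T, written with the miR168a base first, its position in that amplicon, and then the miR168b base. Over 122 aligned nt of hairpin, 104 (85.2%) were identical. The lower stem (17 nt next to each outer end of the duplex) differed in both arms, with 13 of 17 aligned nt identical in the 5′ arm and 14 of 16 in the 3′ arm. The predicted minimum free energy was −91.1 kcal/mol for the pri-miR168a amplicon, with 176 paired nt, and −102.2 kcal/mol for that of pri-miR168b, with 212 paired nt.

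Median coverage per position was 51154 to 83952 base calls in pri-miR168a and 62413 to 126526 in pri-miR168b over the 6 libraries. Inside the primer ends (26 nt at each end), it was never under 19519. Rates, shares and regions below leave the primer ends out, whereas the edgeR and DESeq2 counts of tested positions include them. Because the precursors are alike, the share of calls with the other precursor's base was measured at the 18 hairpin positions where they differ. In the mocks it was at most 0.688% in pri-miR168a, at G128T, and at most 0.482% in pri-miR168b. In the DMS libraries it reached 3.01% in pri-miR168a, at C247T in chr2 DMS replicate 2. In pri-miR168b it reached 7.69%, in Col DMS replicate 2 at T195G, a G of pri-miR168b. At an A or C such as position 247, a mismatch from DMS can give the same base. With DMS the share therefore does not measure calls from the other precursor alone. One library stood apart for pri-miR168b alone: Col DMS replicate 2, its deepest, had 25 A or C positions at 0.5% or more, against 58 to 69 in the other DMS libraries. Its value is given beside the results on single positions and regions of pri-miR168b.

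Single positions of pri-miR168a were called above the mock with DMS in flanks, duplex and loop, and few positions of pri-miR168b were called. By edgeR's quasi-likelihood test on mismatch counts, with an adjusted p under 0.05, 20 of 145 tested A or C positions of pri-miR168a rose in chr2 and 16 in Col, 15 of them in both. Over all 19 RNAs the called share was 13.0% in chr2, 13.2% in Col and 11.9% in both, so the share of 13.8% in chr2 and 11.0% in Col for pri-miR168a lay near that background. In pri-miR168b 4 of 134 rose in chr2 (2.99%), 3 in Col (2.24%) and 1 in both, below it. Outside the primer ends, pri-miR168b had 69 and 58 positions at 0.5% or more in chr2 with DMS and 62 and 25 in Col. Both mocks had 0. The value of 25 is that of Col DMS replicate 2, which is part of the fit. Few calls thus do not show that DMS left pri-miR168b unmarked. With the primer ends left out of the fit, 23 and 6 rose in chr2 and 18 and 4 in Col in pri-miR168a and pri-miR168b. No share over all RNAs is given for that fit, so these counts were not set against a background. Each genotype had 1 mock library, so the spread came from the DMS libraries. No position was called once any DMS library was left out, and DESeq2 called 78 and 63 in chr2 and 73 and 48 in Col for pri-miR168a and pri-miR168b, where it called 43.8% and 49.1% over all RNAs.

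The position of pri-miR168a with the highest mean rate was 112, an A of the 5′ flank that the fold pairs. It read 10.9% and 8.45% in chr2 with DMS and 6.35% and 11.4% in Col with DMS, against 0.0307% (95% Wilson interval 0.0183% to 0.0515%) in the chr2 mock and 0.0418% (0.0286% to 0.0613%) in the Col mock. The 4 treated libraries all lay far above both mocks and the genotypes overlapped (log2 fold over mock 8.29 in chr2 with an adjusted p of 0.0380, and 7.72 in Col with 0.0393, edgeR). In the flanks, positions 65, 72 and 90 of the C-rich 5′ side and the run of A at 261 to 263 on the 3′ side also rose in both genotypes. Position 261 read 2.00% and 4.61% in chr2 and 8.42% and 6.91% in Col, whereas 262 read 4.39% and 6.0% in chr2 and 3.06% and 6.01% in Col. At 261 both chr2 libraries were lower than both Col libraries, but the unadjusted p was 0.163 and the adjusted p 0.777 (edgeR), and at 262 they overlapped. Position 280, an A inside the 3′ primer end, also passed, at 3.14% to 6.16%.

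The only position of pri-miR168b above the mock in both genotypes was 127, an unpaired A of the 5′ flank. It read 5.5% and 5.42% in chr2 and 4.68% and 6.78% in Col with DMS, against 0.0174% in the chr2 mock and 0.0241% in the Col mock (adjusted p 0.0347 in chr2 and 0.0366 in Col, edgeR). It was as high in Col DMS replicate 2 as elsewhere. The highest mean rates of pri-miR168b were at positions 189, 248 and 115, a C of the upper stem, an A of the 3′ lower stem and a C of the 5′ flank, and all 3 are drawn as paired. Position 189 read 7.27% and 16.3% in chr2 and 4.83% and 4.69% in Col, position 248 read 4.22% and 8.07% in chr2 and 3.93% and 14.7% in Col, and position 115 read 5.91% and 4.68% in chr2 and 8.47% and 5.94% in Col. Positions 189 and 248 did not pass in either genotype (adjusted p 0.0533 to 0.105, edgeR), and 115 passed in Col alone (adjusted p 0.0593 in chr2 and 0.0418 in Col). The difference between genotypes at 115 was not called (adjusted p 0.998, edgeR).

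**Figure D1:**
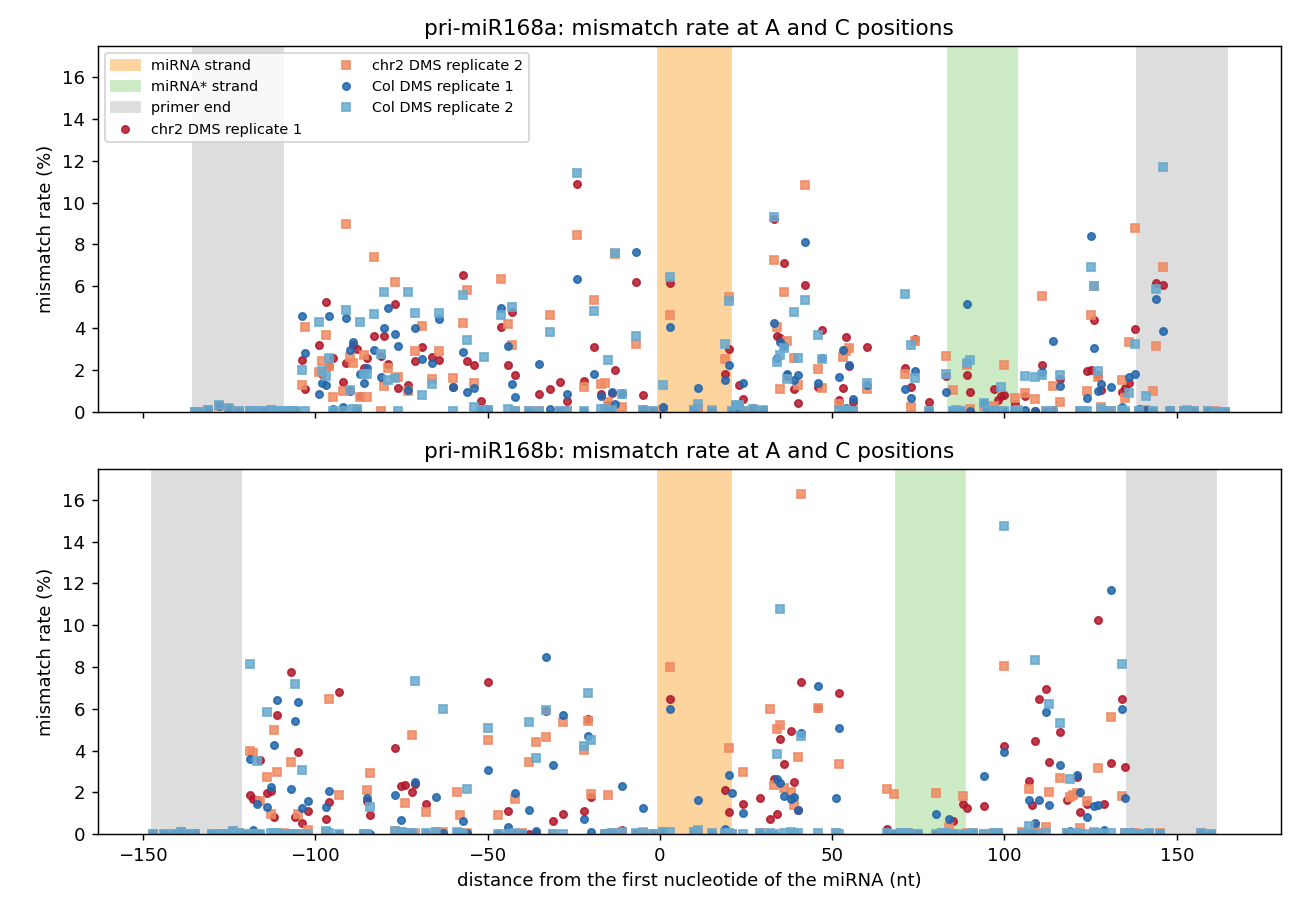
Mismatch rate (%, vertical axis) at each A and C of pri-miR168a (top) and pri-miR168b (bottom) against the distance in nt from the first nucleotide of the miRNA; points are single DMS libraries, chr2 in red and orange and Col in blues, and bands mark the miRNA, the miRNA* and the primer ends. In pri-miR168a many positions of the 5′ flank and between the duplex strands are high in all 4 libraries, whereas in pri-miR168b points of Col DMS replicate 2 lie near 0 over the duplex.

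The precursors differed in how constant their pattern was. In pri-miR168a 49 of 124 A or C positions (39.5%) were constantly reactive, and in pri-miR168b 13 of 115 (11.3%). Over the 16 pri-miRNAs the share was 11.5%, and over all 19 RNAs, 3 mRNAs included, it was 25.2%. Only pri-miR159a, at 41.7%, had a larger share among pri-miRNAs than pri-miR168a. Single libraries held 88 and 75 reactive positions of pri-miR168a in chr2 and 75 and 63 in Col. Those of pri-miR168b held 69 and 58 in chr2 and 62 and 25 in Col. Without Col DMS replicate 2, 35 positions of pri-miR168b were reactive in all of the other 3 libraries, while leaving out any 1 library put pri-miR168a at 50 to 59.

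The few reactive positions of pri-miR168b in Col DMS replicate 2 were high ones. Their median rate was 5.38%, against 1.97% to 2.73% in the other DMS libraries, and coverage was the highest of all there. Mean rates over all A or C positions differed less, at 1.84% and 1.75% in chr2 and 1.56% and 1.30% in Col. For pri-miR168a they were 1.81% and 1.95% in chr2 and 1.55% and 1.77% in Col. Rates fell into a high and a low class, since only 5 to 10 positions of pri-miR168a and 2 to 4 of pri-miR168b per DMS library lay between 0.2% and 0.5%. Neither mock had an A or C at 0.5% or more in either precursor. As a description over positions of the same libraries, Spearman's rho between DMS libraries was 0.629 to 0.769 over 124 positions of pri-miR168a and 0.299 to 0.570 over 115 of pri-miR168b.

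**Figure D2:**
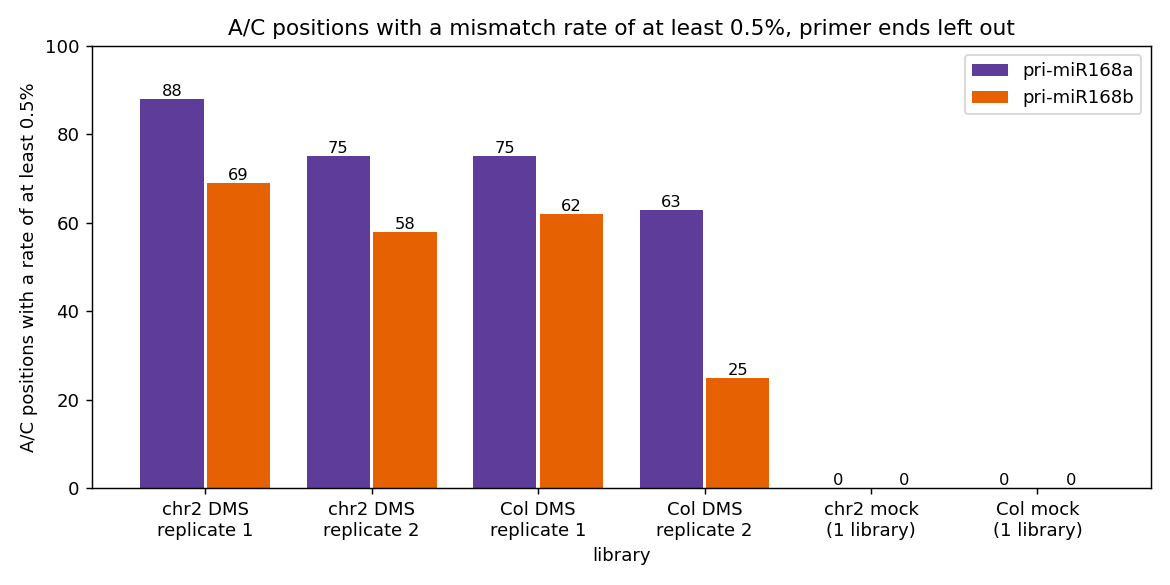
Number of A and C positions with a mismatch rate of at least 0.5% (bars, from 0) in each library, for pri-miR168a (purple) and pri-miR168b (orange), primer ends left out. The DMS bars of pri-miR168a run from 63 to 88 and those of pri-miR168b from 25 to 69, and both mocks have 0.

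Predicted pairing separated high from low rates in pri-miR168a, and less clearly in pri-miR168b. In pri-miR168a 37 of 56 unpaired A or C positions were constantly reactive (66.1%), against 12 of 68 paired ones (17.6%). Mean rates there were 2.59% and 3.02% for unpaired and 1.16% and 1.07% for paired positions in the chr2 libraries, and 2.39% and 2.43% against 0.867% and 1.23% in the Col libraries, so unpaired positions were 1.98 to 2.83 times higher. In pri-miR168b the share was 4 of 33 unpaired positions (12.1%) and 9 of 82 paired ones (11.0%), and the ratio of means was 1.34 and 1.58 in chr2 and 1.45 and 0.927 in Col. Both shares require 0.5% in Col DMS replicate 2 as well, the library with few reactive positions of pri-miR168b. The ratio of 0.927 was also that of Col DMS replicate 2, and the shares were not compared without it. Paired positions at the end of a helix of pri-miR168a read 1.31% to 1.71%, those inside a helix 0.517% to 0.890%. In pri-miR168b these ranges met, at 1.30% to 1.87% for helix ends and 1.22% to 1.67% inside. The fold is a computed model of the amplicon alone, and no fold was tested against another.

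The rates of the miRNA strand ranked alike in both precursors, though position 20 was open more often in pri-miR168a. Its identical 21 nt hold 7 A or C positions, and their mean rates over the 4 DMS libraries ranged from 0.0488% to 5.32% in pri-miR168a and from 0.0380% to 5.15% in pri-miR168b. Spearman's rho between the precursors over these 7 was 0.964, given as a description, since the points share libraries and sequence. The highest was position 4 of the miRNA, a C that faces another C in the miRNA* and is unpaired in both folds. In pri-miR168a it read 6.17% and 4.6% in chr2 and 4.06% and 6.46% in Col, and in pri-miR168b 6.50% and 8.02% in chr2 and 5.99% and 0.0893% in Col. Without Col DMS replicate 2 every library had it at 4% or more in both precursors, and the 4 mock values were between 0.0152% and 0.0368%. In pri-miR168a it rose above the mock in chr2 and in Col (adjusted p 0.0356 and 0.0375, edgeR).

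The 3′ end of the miRNA, where it meets the upper stem, came next. Position 21, the unpaired last A, read 3.00% and 5.47% in chr2 and 2.23% and 5.31% in Col in pri-miR168a, and 1.04% and 4.15% in chr2 and 2.84% and 0.0430% in Col in pri-miR168b. Position 20, an A paired to the first base of the miRNA*, read 1.81% and 2.50% in chr2 and 1.5% and 3.24% in Col in pri-miR168a. In pri-miR168b it read 2.12% and 0.0485% in chr2 and 0.259% and 0.0460% in Col. Position 20 was thus high in every DMS library of pri-miR168a and in 1 of pri-miR168b. The paired C positions 11 and 16 stayed at or below 0.110% in every library of both precursors, the level of the mocks. Position 2 passed 0.5% only in Col DMS replicate 2 of pri-miR168a.

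The miRNA* read lower than the miRNA in every DMS library of both precursors. Its mean rate was 0.565% and 0.576% in chr2 and 0.499% and 0.553% in Col in pri-miR168a, where the miRNA was 2.66 to 4.33 times higher. In pri-miR168b it was 0.246% and 0.448% in chr2 and 0.200% and 0.0426% in Col, and the miRNA was 2.10 to 7.79 times higher. The ratio of 2.10 is that of Col DMS replicate 2, where both strands were near the mock. There the miRNA read 0.0895% and the miRNA* 0.0426%, against 0.0539% and 0.0408% in the Col mock. In the mocks that ratio was 0.687 to 0.757 in pri-miR168a and 1.32 to 1.36 in pri-miR168b. The C of the miRNA* that faces position 4 of the miRNA (position 17 of the miRNA*) read 0.786% and 2.21% in chr2 and 0.0109% and 0.0255% in Col in pri-miR168a, and 0.611% and 0.0205% in chr2 and 0.0193% and 0.0214% in Col in pri-miR168b. Both sides of this mismatch are free in the fold, and the miRNA side was the higher one in 8 of 8 values.

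Position 225 was the only constantly reactive A or C of the miRNA* in pri-miR168a. This C faces a T of the miRNA at an internal mismatch, and it read 1.74% and 2.25% in chr2 and 5.13% and 2.31% in Col, against 0.215% and 0.193% in the chr2 and Col mocks. The difference C225T leaves pri-miR168b without a C there, so DMS gives no reading of that side in pri-miR168b. Its mock level is above the mean over A or C positions (0.055% in the chr2 mock and 0.0574% in the Col mock), and the share of calls with the other precursor's base there was 0.197% in the chr2 mock and 0.175% in the Col mock. Over the 10 A or C positions of the miRNA* that both precursors share, Spearman's rho of the mean rates was −0.176.

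**Figure D3:**
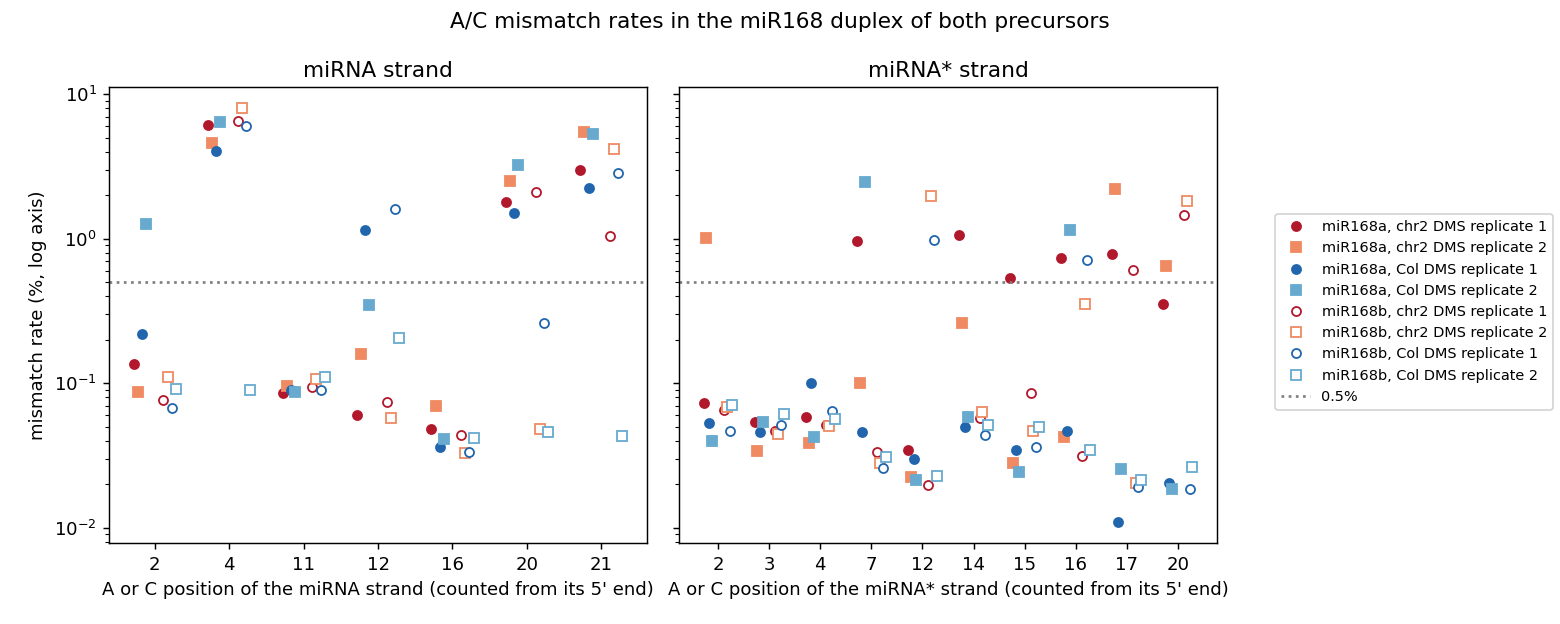
Mismatch rate (%, log axis) at the A and C positions that both precursors share in the miRNA (left) and the miRNA* (right), counted from the 5′ end of each strand; filled points are pri-miR168a and open points pri-miR168b, chr2 in red and orange and Col in blues, and the dotted line is 0.5%. Position 4 of the miRNA is above 4% in 7 of 8 values, and position 20 of the miRNA* is higher in all chr2 libraries than in all Col libraries.

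Below the duplex, base differences and rates moved together at 1 site. In pri-miR168a the C at position 129 of the 5′ lower stem is unpaired and the pair just outside it in the fold joins positions 128 and 247. In pri-miR168b the differences G128T and C247T undo that pair, and T246G gives the same C, at position 141 there, a partner at position 243. Position 129 of pri-miR168a read 6.18% and 3.25% in chr2 and 7.66% and 3.64% in Col, while position 141 of pri-miR168b read 0.0242% and 0.0298% in chr2 and 0.0304% and 0.0379% in Col. The precursors did not overlap there in any library, and pri-miR168b was at its mock level of 0.0461% and 0.0449%. Position 247 of pri-miR168a, drawn as paired, was constantly reactive too, at 1.77% to 5.54%. On the 3′ arm the order turned: the A at position 252 of pri-miR168a read 1.55% and 0.442% in chr2 and 1.21% and 1.75% in Col, below the same A at position 248 of pri-miR168b in every library. Their predicted partners differ: 252 pairs within the lower stem of pri-miR168a, whereas 248 pairs with position 93 of the 5′ flank of pri-miR168b. These sites were chosen after their values were seen and carry no test.

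Between the duplex strands, pri-miR168a was open at the stretch ACAC of positions 169 to 172. Of these 4, the first 3 lie in a hairpin loop of its fold, and in pri-miR168b the same letters at positions 180 to 183 are drawn as paired. The A at 169 read 9.21% and 7.28% in chr2 and 4.22% and 9.33% in Col in pri-miR168a, whereas its counterpart at 180 read 0.751% and 6.01% in chr2 and 0.0725% and 0.0755% in Col in pri-miR168b. The C at 170, above the mock in both genotypes, read 3.62% and 4.05% in chr2 and 2.57% and 2.36% in Col. The last 2 letters were constantly reactive in both precursors. The third, an A, read 3.50% and 1.06% in chr2 and 3.34% and 2.71% in Col in pri-miR168a, and 0.988% and 5.02% in chr2 and 2.66% and 3.82% in Col in pri-miR168b. The last, a C, read 7.11% and 5.72% in chr2 and 3.15% and 3.07% in Col in pri-miR168a, and 4.56% and 5.23% in chr2 and 2.47% and 10.8% in Col in pri-miR168b. The precursors overlapped at both letters. The C at 178 of pri-miR168a, unpaired, had a mean of 7.59%, and its counterpart at 189 of pri-miR168b, paired in the fold, had 8.27%, the highest of that precursor.

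Region means took in every A or C position of a precursor. By these means, pri-miR168a was higher than pri-miR168b in the lower stem and the duplex in 4 of 4 DMS libraries. In the pri-miR168b fold, outer positions of the lower stem pair with the 5′ flank (248 with 93, 132 with 118 and 134 with 116), not arm to arm. The lower stem is therefore a matched distance from the duplex, not a like structure in both folds. The lower stem read 1.05% and 1.44% in chr2 and 1.09% and 1.37% in Col in pri-miR168a, against 0.533% and 0.757% in chr2 and 0.762% and 1.09% in Col in pri-miR168b. Within each library pri-miR168a was higher by a mean log2 ratio of 0.65 ± 0.30 (SD, n = 4), a 1.57-fold difference, with an exact two-sided sign-flip permutation p of 0.125, the smallest that 4 libraries can give (0.313 adjusted over 5 regions). The arm means of the lower stem went opposite ways. In the 5′ arm, which holds position 129, the mean over the 4 DMS libraries was 1.45% in pri-miR168a against 0.240% in pri-miR168b. In the 3′ arm it was 0.965% against 1.33%. The 3′ arm of pri-miR168b holds position 248, with a mean of 7.74%. Its next highest mean was 1.05%, at position 242, and the arms were not compared without position 248. Position 247 of pri-miR168a, a C counted in that arm, is T in pri-miR168b. In the 3′ arm pri-miR168a was the higher one in chr2 DMS replicate 2 alone (1.25% against 1.20%). Duplex means covered 19 A or C positions in pri-miR168a and 17 in pri-miR168b. Positions 225 and 230 of pri-miR168a, both C, are T in pri-miR168b, and 225 was constantly reactive. The duplex count of 4 of 4 was thus not taken over like positions, and means over the shared positions alone were not compared. The duplex read 0.952% and 1.05% in chr2 and 0.803% and 1.23% in Col in pri-miR168a, and 0.730% and 1.00% in chr2 and 0.758% and 0.0619% in Col in pri-miR168b. Its mean log2 ratio of 1.00 ± 1.68 (SD, n = 4, exact permutation p = 0.125) rested on Col DMS replicate 2, and without that library it was 0.17 (exact permutation p = 0.250).

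The other regions did not differ in one direction. The flanks read 2.08% and 2.27% in chr2 and 1.84% and 1.96% in Col in pri-miR168a, and 2.19% and 1.68% in chr2 and 1.82% and 1.69% in Col in pri-miR168b, with a mean log2 ratio of 0.14 ± 0.22 (SD, n = 4, exact permutation p = 0.375). The upper stem read 1.76% and 1.94% in chr2 and 1.5% and 1.6% in Col in pri-miR168a, and 2.41% and 3.42% in chr2 and 1.65% and 1.24% in Col in pri-miR168b. It was lower in pri-miR168a in 3 of 4 libraries, with a mean log2 ratio of −0.26 ± 0.49 (SD, n = 4, exact permutation p = 0.375). The terminal loop, the loop at the tip of each hairpin arm, holds 4 A or C positions in pri-miR168a and 1 in pri-miR168b, and its log2 ratio of 0.72 ± 3.11 (SD, n = 4, exact permutation p = 1) became −0.82 without Col DMS replicate 2. The pri-miR168a loops read 4.86% and 3.37% in chr2 and 2.85% and 3.95% in Col, and the single C of the pri-miR168b loop, position 194, read 6.04% and 6.05% in chr2 and 7.10% and 0.0483% in Col. In both precursors the loops had the highest mean rate of the 5 regions, and the duplex and lower stem the lowest.

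**Figure D4:**
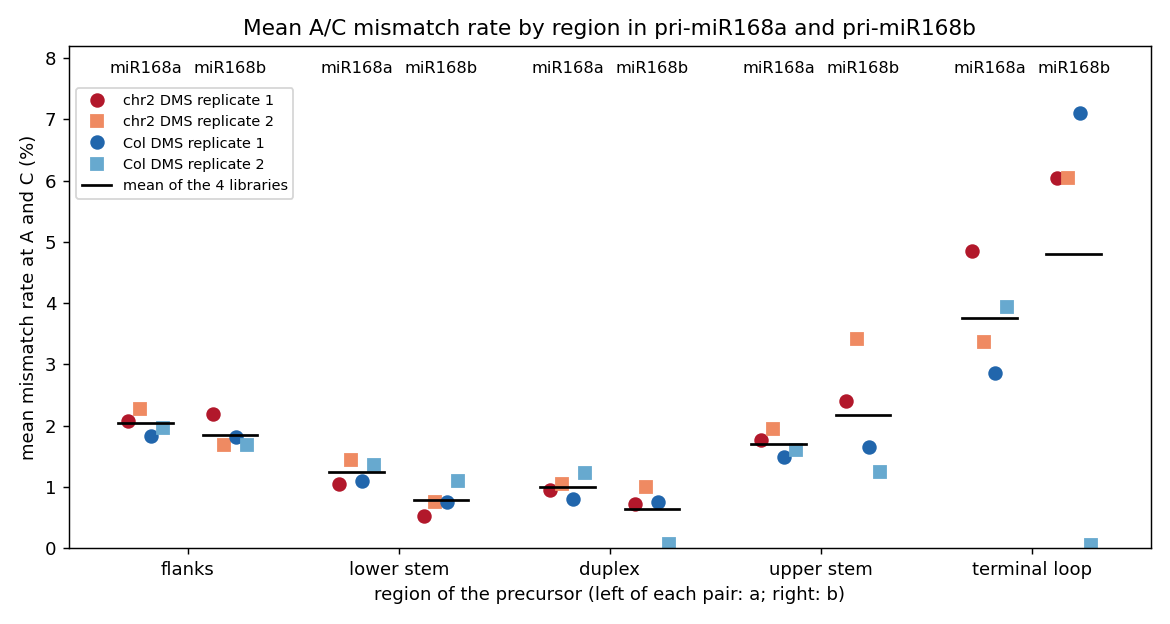
Mean mismatch rate (%) over the A and C positions of 5 regions, pri-miR168a on the left and pri-miR168b on the right of each pair; points are single DMS libraries, chr2 in red and orange and Col in blues, and bars are the mean of the 4. The lower stem of pri-miR168a lies at 1.05% to 1.44% and that of pri-miR168b at 0.533% to 1.09%, and Col DMS replicate 2 puts the duplex and loop of pri-miR168b near 0.

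The design then set chr2 against Col with DMS, the question being whether the folding of these precursors differs in the mutant. No position was called by edgeR in pri-miR168a or pri-miR168b, nor among all 2594 tested (0% called). At an unadjusted p under 0.05 there were 7 of 143 in pri-miR168a, all higher in chr2, and 11 of 134 in pri-miR168b, 9 higher and 2 lower, against 4.24% over all RNAs, of which 59 positions were higher in chr2 (2.27%) and 51 lower (1.97%). DESeq2 called 17 positions of pri-miR168a and 18 of pri-miR168b at an adjusted p under 0.05, with 16.1% of 1789 called over all RNAs. The number of positions that DESeq2 tested in each precursor is not given, here or against the mock. Its counts were therefore not set against its shares over all RNAs.

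The positions with the smallest p were near the mock level in both Col libraries and above it in both chr2 libraries. Position 181 of pri-miR168b, the second letter of its ACAC stretch, read 2.65% and 2.35% in chr2 and 0.0267% and 0.0257% in Col (unadjusted p 0.00119, adjusted p 0.255, edgeR). Position 114 of pri-miR168a, a paired A of the 5′ flank, read 1.47% and 1.18% in chr2 and 0.0195% and 0.0293% in Col (unadjusted p 0.00215, adjusted p 0.255). The genotypes did not overlap at either.

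The other position of each precursor in that group was the same letter. Position 20 of the miRNA*, an A paired to the first base of the miRNA at the outer end of the duplex, read 0.355% and 0.642% in chr2 and 0.0203% and 0.0184% in Col in pri-miR168a (position 239). In pri-miR168b (position 236) it read 1.46% and 1.84% in chr2 and 0.0184% and 0.0262% in Col. Both Col values and both mocks were at the background in each precursor, and each chr2 value was at least 10 times higher. The unadjusted p was 0.00236 and 0.00189, and the adjusted p 0.255 for both (edgeR), so neither passed. DESeq2 gave adjusted p-values of 3.34e-10 and 2.42e-34. The precursors were read from the same libraries, so they are not independent of each other. At the 2 sites of the miRNA* where they differ in sequence, at most 1.14% of the pri-miR168a calls in a chr2 DMS library carried the base of pri-miR168b. That value is from C225T, where the chr2 mock had 0.197%. Position 225 is a reactive C, and a DMS mismatch read as T gives the same base. The value therefore cannot tell how many calls came from pri-miR168b.

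For a lower rate in chr2, position 12 of the miRNA had the second smallest p in each precursor, after position 49 in pri-miR168a and position 28 in pri-miR168b. In pri-miR168a (position 147) it read 0.0604% and 0.161% in chr2 and 1.15% and 0.345% in Col, and in pri-miR168b (position 159) 0.0742% and 0.0578% in chr2 and 1.62% and 0.205% in Col. All chr2 values were at or below 0.161%, beside mock values of 0.0467% to 0.0648%, and the Col libraries differed among themselves by more than 3-fold (adjusted p 0.723 for both, edgeR). Position 49 of pri-miR168a read 0.765% and 0.714% in chr2 and 1.82% and 4.28% in Col, and position 28 of pri-miR168b was at or below 0.0282% in every library (adjusted p 0.723 for both, edgeR).

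**Figure D5:**
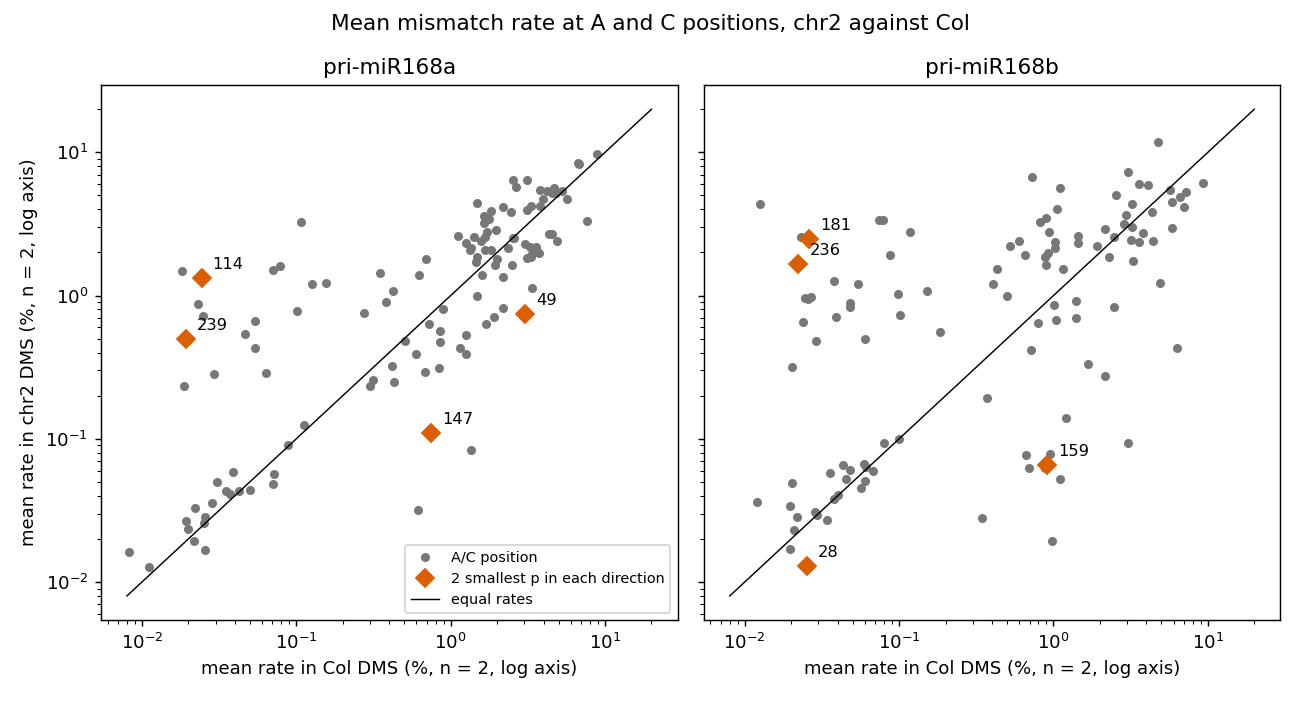
Mean mismatch rate (%, n = 2 each, log axes) in chr2 against that in Col at each A and C of pri-miR168a (left) and pri-miR168b (right) outside the primer ends; diamonds mark, for each direction, the 2 positions of smallest p, labelled with their position, and the line marks equal rates. Positions 114 and 239 of pri-miR168a and 181 and 236 of pri-miR168b lie near 0.02% in Col and at 0.499% to 2.50% in chr2.

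Counting positions with 0.5% or more in at least 1 DMS library, both chr2 libraries lay above both Col libraries at 24 of 101 in pri-miR168a (23.8%) and 23 of 92 in pri-miR168b (25.0%), where the share over the 16 pri-miRNAs was 18.0%. They lay below at 11 of 101 (10.9%) and 5 of 92 (5.43%), where that share was 13.0%. In pri-miR168b this count rests in part on the few reactive positions of Col DMS replicate 2. No region of either precursor was called by limma, nor any of the 123 regions of the 16 pri-miRNAs (0% called), of which 8 had an unadjusted p under 0.05 and none of these was in miR168. The nearest was the upper stem of pri-miR168b, where both chr2 libraries lay above both Col libraries, with a log2 ratio of 0.93 (95% interval −0.10 to 1.96, unadjusted p 0.0630, adjusted p 0.805, limma). The upper stem of pri-miR168a had a log2 ratio of 0.20 (−0.48 to 0.89), its miRNA one of −0.09 (−1.44 to 1.26) and its miRNA* one of 0.07 (−0.61 to 0.74). The miRNA of pri-miR168b, with 1.42% and 1.79% in chr2 and 1.56% and 0.0895% in Col, had an interval of −2.95 to 6.47. With intervals this wide, the data do not show that the regions were alike in both genotypes.

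Among the other 14 pri-miRNAs, the profile of log2 region rates closest to the mean of the miR168 pair was that of pri-miR164b, at a Euclidean distance of 2.05 over 7 regions, followed by pri-miR159b at 2.38 over 7. In mean rate over all A or C positions, pri-miR168a (1.77%) ranked 10 and pri-miR168b (1.61%) ranked 12 of 16. In kind, an A of either precursor was read mostly as T, with a median share of 80.7% to 96.9% of the mismatches at reactive positions per library in pri-miR168a and 55.5% to 99.5% in pri-miR168b. A reactive C was read as T with a median share of 52.8% to 54.3% in pri-miR168a and 51.1% to 98.9% in pri-miR168b, the highest in Col DMS replicate 2.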

How the data were processed

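The deposited files hold counts of A, C, G and T calls per amplicon position with the reference base, per the file headers. Tools listed in the submitters' processing notes are BWA, SAMtools 1.5, Picard and cutadapt; what each did, and the genome build, is not given in the sources used here, and positions are those of the amplicon. Members and lists were chosen with earlier results of these data known.

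From the counts, coverage was the sum of the 4 bases and the rate the share of other bases. The miRNA was located by its first 7 letters and known length, since no table of mature sequences was at hand, and the miRNA* as its pairing partners in the minimum free energy fold (ViennaRNA 2.7.2). The terminal loop is the apical hairpin loops, the upper stem the rest between the strands, and flanks lie between lower stem and primer ends. Loci were named through a RefSeq gene table (TAIR10.1). Precursors were aligned with Biopython 1.88.

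Mismatch counts at A and C of all 19 RNAs were tested with edgeR 4.0.16 (R 4.3.3) with log coverage as offset, at a coverage of at least 100, at least 10 mismatches and at most 5% in both mocks, and adjusted by Benjamini-Hochberg (threshold 0.05). DMS against mock used all 6 libraries, chr2 against Col the 4 DMS libraries with size factors of 0.962 to 1.01 from the median ratio of rates. Region means (log2, 0.05% added) were tested with limma 3.58.1 between genotypes and by exact sign-flip permutation within library between precursors. The fits were tested on simulated counts with a small spread that was the same at every position. Real libraries of a genotype differed far more at some positions, so that test does not tell how the calls behave here. Wilson intervals (95%) cover counting error only, since no molecular identifiers are mentioned. Python 3.11.15, SciPy 1.17.1 and matplotlib 3.10.9 were used.

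Named positions were those above mock in both genotypes (at most 10 by mean rate), the 3 highest means, the 2 smallest p per direction and the miRNA strand, plus the 2 nearest pri-miRNAs by profile and the duplex differences. Others were chosen after their values were seen. Alternatives were DESeq2 1.42.0, limma on single positions, other filters, size factors, added values, folds and lower stem length, medians, mock subtraction, the replicate number as a block, and leaving out single DMS libraries. Added after seeing the data were primer ends left out, another loop definition, and limits of 0.3% and 1% for reactive positions.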

Additional observations from a re-analysis of the deposited data

Results flagged for a closer look

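G and T positions, which DMS is not known to mark in this readout, were measured as a control and had mean rates above the mocks with DMS. In pri-miR168a their mean rate was 0.141% over the 4 DMS libraries, with 0.144% and 0.141% in chr2 and 0.131% and 0.150% in Col, against 0.0632% in the chr2 mock and 0.0594% in the Col mock. In pri-miR168b it was 0.120% over the 4, with 0.116% and 0.119% in chr2 and 0.135% and 0.112% in Col, against 0.0684% and 0.0595% in those mocks. In Col DMS replicate 2 that mean rests on position 202: without it the mean over the other 141 positions was 0.0585%, against 0.0595% in the Col mock. No G or T of the 2840 tested was called above the mock by edgeR in either genotype, and at an unadjusted p under 0.05 there were 6 in chr2 and 3 in Col of 149 in pri-miR168a and 11 in chr2 and 10 in Col of 171 in pri-miR168b. These shares (4.03%, 2.01%, 6.43% and 5.85%) were below those over all RNAs, 208 of 2840 in chr2 (7.32%) and 190 in Col (6.69%). DESeq2 was not run on G and T.

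The highest G or T was position 202 of pri-miR168b, a G of the upper stem that the fold pairs with the reactive C at position 189. It read 0.0419% and 0.0470% in chr2 and 0.0474% and 7.71% in Col, against 0.0538% and 0.0487% in the chr2 and Col mocks. The high value stood in Col DMS replicate 2 alone, the library that stood apart for pri-miR168b. Position 202 is also one where the precursors differ (T195G), and the cause was not tested.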

How the results depend on the processing

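Counts of positions above the mock depended on the test: DESeq2 called 78 and 63 in chr2 and 73 and 48 in Col for pri-miR168a and pri-miR168b, whereas edgeR with the replicate number as a block called 0 in all 4 cases, and so did each fit without 1 DMS library (0 to 0), which rest on fewer residual degrees of freedom. Same-numbered DMS libraries correlated at 0.0361 in their deviations over 2594 positions and at 0.162 over the 277 of both precursors. The labels do not say what a number shares, so the numbers were not taken to pair the libraries, and the block left 0 calls between genotypes. The other filters gave 20 to 23 and 4 to 6 in chr2 and 14 to 18 and 3 to 4 in Col, with no share over all RNAs beside them. Between genotypes DESeq2 called 17 and 18, and the other alternatives 0. Constantly reactive positions of pri-miR168b numbered 13 to 35 over the fits without 1 DMS library or with all.

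The log2 ratio of pri-miR168a over pri-miR168b changed sign in the upper stem with medians (0.0872), and in the terminal loop it ranged from −0.816 to 1.40 without 1 library. The other 58 of 60 alternatives kept their sign. The chr2 over Col log2 ratios of regions, none of them called, kept their sign in 231 of 255. In pri-miR168a the 5′ lower stem turned to −0.00285 with mock subtraction, −0.277 with a lower stem of 12 nt and −0.118 with mRNA size factors, which also turned the miRNA* (−0.0528). In pri-miR168b mRNA size factors turned the 3′ flank (−0.0438) and 5′ flank (−0.0843), and medians turned the 3′ lower stem (0.222), 5′ lower stem (0.217) and miRNA (−0.498). The cause was not tested. Without 1 DMS library the log2 ratios of chr2 over Col that changed sign ranged as follows: in pri-miR168a −0.108 to 0.453 in the 3′ flank, −0.565 to 0.296 in the 3′ lower stem, −0.241 to 0.247 in the 5′ lower stem, −0.526 to 0.341 in the miRNA, −0.0252 to 0.149 in the miRNA* and −0.0543 to 0.473 in the terminal loop. Likewise in pri-miR168b −0.539 to 0.686 in the 3′ flank, −1 to 0.114 in the 3′ lower stem, −0.00337 to 0.0785 in the 5′ flank, −1.56 to 1.03 in the 5′ lower stem and −0.26 to 5.91 in the terminal loop. There were 2 DMS libraries per genotype and 1 mock each.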
